A study of Schizosaccharomyces pombe with 6 samples.

Results

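The 10 genes *ade1* to *ade10* of fission yeast (*Schizosaccharomyces pombe*) encode the enzymes that make purine nucleotides from small precursors, and they were taken by name from the gene names the authors deposited. All 10 were found among the 6291 genes counted. RNA-Seq was performed on 6 cultures of the *nup211-so* (*nup211* shut-off) strain, in which the essential nuclear pore protein Nup211 is expressed from a thiamine-repressible promoter. Of these, 3 biological replicates labelled thiamine were grown in Edinburgh Minimal Media (EMM) with 30 uM (10 ug/ml) thiamine for 24 hours, washed, and grown for a further 24 hours in fresh thiamine medium. The control libraries come from 3 biological replicates labelled no treatment, grown in EMM without thiamine. The culture times of the control are not given in the sources used here, so a difference in schedule cannot be told apart from thiamine either. Both groups are h+ cells of the same strain, with nup211::P81nmt1 and its ura4+ marker, the alleles ade6-M210 and leu1-32, and ura4-D18 at the *ura4* locus, and the medium of both held adenine and leucine. All 6 cultures therefore carry a mutant allele of one of the 10 genes, *ade6*, and the counts of *ade6* are those of the *ade6-M210* allele. The comparison asks how the mRNA levels of the purine synthesis genes differ in medium meant to shut *nup211* off, and no culture of a strain without the P81nmt1 promoter was analysed here, so exposure to thiamine and the intended repression of *nup211* cannot be told apart.

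In the de novo pathway, the purine ring is built step by step on phosphoribosyl pyrophosphate (PRPP) until inosine monophosphate (IMP) is formed, from which AMP and GMP are made along separate branches. Some steps need one-carbon units carried by tetrahydrofolate, and cells can instead take up ready-made bases such as adenine and convert them by salvage enzymes. Fission yeast mutants blocked at the *ade6* step accumulate a red pigment when adenine is limiting, which made *ade6* alleles, *ade6-M210* among them, standard markers in this yeast. In budding yeast, purine synthesis genes are controlled by adenine supply through the factors Bas1 and Pho2.

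The upstream sequences of the 5 *ade* genes that the results turn on are given first, the 2 that rose (*ade6* and *ade9*) and the 3 with the largest falls with TMM normalization (*ade4*, *ade10* and *ade2*, although with length and GC trends removed *ade3* takes the place of *ade10*). Each is the 250 bases before the annotated gene start in RefSeq's ASM294v3 assembly, written 5′ to 3′ on the strand of the gene. Capitals mark the matches on either strand to the 4 motifs searched, TGACTC (the core bound by Bas1 and Gcn4 in budding yeast), TGACGT (the core of the site bound by Atf1), CCAAT (an upstream element of many eukaryotic promoters) and TATAAA (a core promoter element).
*ade6*, chrIII:1316031-1316280, strand plus: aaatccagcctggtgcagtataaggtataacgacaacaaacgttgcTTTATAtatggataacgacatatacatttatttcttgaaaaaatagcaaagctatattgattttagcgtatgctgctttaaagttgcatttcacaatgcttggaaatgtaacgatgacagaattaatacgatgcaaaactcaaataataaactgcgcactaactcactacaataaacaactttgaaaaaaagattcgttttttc
*ade9*, chrII:3448656-3448905, strand plus: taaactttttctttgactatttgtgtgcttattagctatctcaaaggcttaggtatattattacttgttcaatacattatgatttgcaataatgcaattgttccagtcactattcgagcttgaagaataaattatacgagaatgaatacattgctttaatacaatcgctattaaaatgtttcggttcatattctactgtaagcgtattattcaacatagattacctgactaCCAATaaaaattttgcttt
*ade4*, chrI:5366419-5366668, strand minus: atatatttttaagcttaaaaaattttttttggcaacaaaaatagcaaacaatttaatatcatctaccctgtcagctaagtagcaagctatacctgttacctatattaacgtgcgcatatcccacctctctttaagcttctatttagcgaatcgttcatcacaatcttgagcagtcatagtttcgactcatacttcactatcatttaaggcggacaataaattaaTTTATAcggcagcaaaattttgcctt
*ade10*, chrIII:949647-949896, strand minus: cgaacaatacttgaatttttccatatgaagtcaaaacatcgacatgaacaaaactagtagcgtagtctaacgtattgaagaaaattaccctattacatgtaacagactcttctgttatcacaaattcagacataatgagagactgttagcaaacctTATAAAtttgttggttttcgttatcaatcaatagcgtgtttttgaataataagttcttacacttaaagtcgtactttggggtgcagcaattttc
*ade2*, chrI:4654381-4654630, strand plus: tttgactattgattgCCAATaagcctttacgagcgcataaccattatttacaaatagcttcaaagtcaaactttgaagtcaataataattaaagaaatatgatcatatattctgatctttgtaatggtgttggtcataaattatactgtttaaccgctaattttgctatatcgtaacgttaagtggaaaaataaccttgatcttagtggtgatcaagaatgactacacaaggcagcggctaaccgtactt
TGACTC was present in 0 of the 10 *ade* windows, against 5.6% of 5112 windows of the same length over all protein-coding genes, and TGACGT in 0 of 10, against 5.5%. TATAAA was found in 7 of the 10, against 44.4% of all windows, and lay at different distances in the genes shown, starting 26 bases upstream in *ade4*, 94 in *ade10* and 204 in *ade6*. CCAAT was found in 3 of the 10 (*ade1*, *ade2* and *ade9*), against 35.3% of all windows, at 235 bases upstream in *ade2* and 19 in *ade9*. No base belonged to more than 1 match. The distances are from the RefSeq starts. In the deposited positions *ade4* starts at 5366539 on the minus strand and *ade9* at 3448865 on the plus strand, farther upstream than in RefSeq. The TATAAA of *ade4* and the CCAAT of *ade9* therefore lie inside the genes as deposited. A match is a description of the letters only, and neither *ade6* and *ade9* nor the 3 falling genes shared a motif that the other set lacked.

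The libraries held 37195197 to 48815139 counts each, of which 24.6% to 46.3% in the libraries labelled thiamine and 41.2% to 48.98% in the control libraries fell on ribosomal RNA genes. The thiamine-repressed gene *nmt1* had 0, 3 and 2 counts in the libraries labelled thiamine, against 1631, 2061 and 1858 in the control libraries. The shut-off gene itself, *nup211*, had 644, 551 and 655 counts in the libraries labelled thiamine, against 477, 590 and 473 in the control libraries, and its log2 fold change of -0.17 did not pass the test (SE 0.11, adjusted p = 0.199, edgeR quasi-likelihood test with Benjamini-Hochberg adjustment). It passed the test with upper quartiles (-0.47, adjusted p = 0.00686) and once the length and GC trends of the libraries had been removed (-0.62, adjusted p = 0.00117), and was positive with library totals (0.40) and with totals without ribosomal RNA genes (0.15). Other annotated genes overlap 87.0% of *nup211*. Of 5434 genes tested, 69.8% were called (adjusted p under 0.05), with 34.5% higher and 35.3% lower where thiamine was present.

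With TMM normalization, 7 of the 9 *ade* genes that could be tested fell (77.8%, against 35.3% of all tested genes) and 2 rose (22.2%, against 34.5%). Scaled by library totals, 1 of the 9 fell and 2 rose, where 588 of all 5434 tested genes fell and 2724 rose. Under that scaling *ade1* and *ade3* took positive values. The 7 include *ade7*, which another annotated gene overlaps over 92.7% of its length, and *ade8*, overlapped entirely, had too few counts to test. The genes that rose were *ade6*, for the carboxylase of the pathway, by 0.79 on the log2 scale, and *ade9*, for a one-carbon enzyme, by 0.67. The falls ran from -0.41 for *ade1* to -1.07 for *ade2*, the first gene of the AMP branch, and the median over the 9 genes was -0.59, against -0.01 over all tested genes. In CPM (counts scaled to 1e+06 a library after TMM normalization), no values overlapped between the groups for 9 of the 9 tested genes, against 75.5% of all tested genes. In bulk RNA, fewer cells that express a gene and less RNA per cell cannot be told apart.

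**Figure D1:**
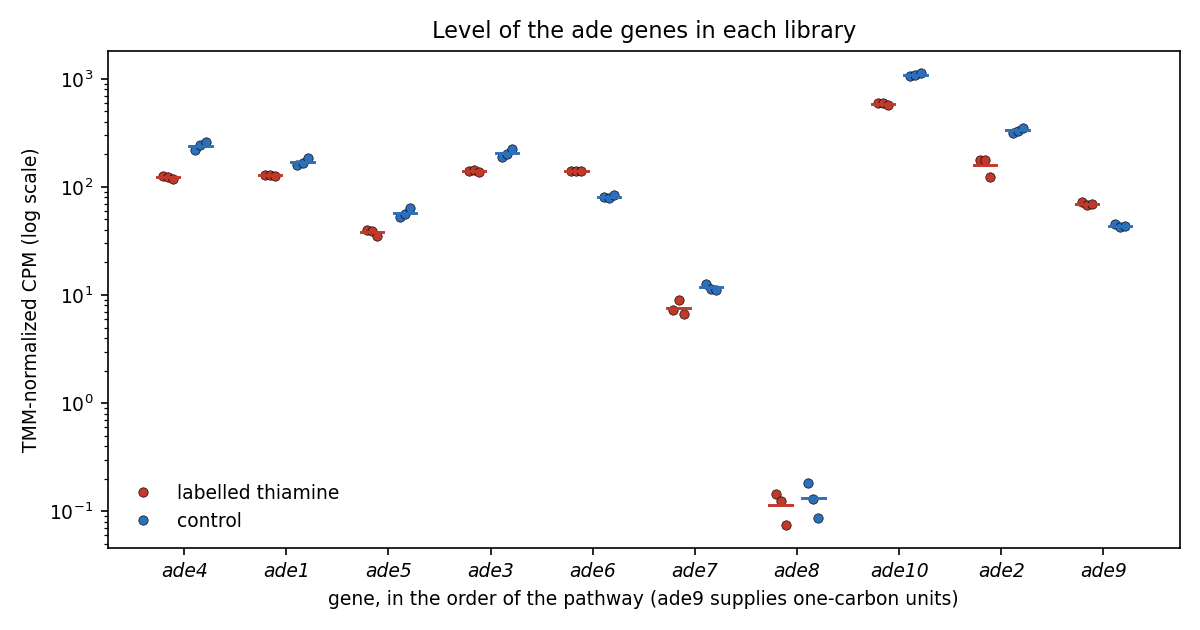
Level of the 10 *ade* genes in each of the 6 libraries, as TMM-normalized CPM on a log axis, with points for libraries and bars for group means (3 libraries labelled thiamine, red, left of 3 control libraries, blue). The libraries labelled thiamine lie above the control libraries for *ade6* and *ade9*, below them for 7 genes, and overlap them for *ade8*, which had 3 to 7 counts a library. With library totals *ade1* and *ade3* take positive log2 fold changes.

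The committed step of the pathway, the transfer of an amino group to PRPP, is catalysed by amidophosphoribosyltransferase, the product of *ade4* (SPAC4D7.08c, chromosome I, 5363988 to 5366418, minus strand, 2 exons). It had 127, 123.4 and 117 CPM in the libraries labelled thiamine, against 219.7, 245 and 259 CPM in the control libraries. Every library labelled thiamine was lower than every control library, and *ade4* fell by 0.98 on the log2 scale (SE 0.092, adjusted p = 2.44e-05, edgeR). With library totals the value was -0.40 (adjusted p = 0.128, edgeR).

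The mRNAs of the next enzymes in the chain fell by less. The bifunctional protein of *ade1* (SPBC405.01, chromosome II, 3140582 to 3143304, plus strand) joins glycine to the growing molecule and later closes the first ring. Its mRNA had 129, 128 and 127 CPM in the libraries labelled thiamine, against 158, 166 and 184 CPM in the control libraries. The libraries labelled thiamine were nearly alike and all lower than the control libraries, with a log2 fold change of -0.41 (SE 0.084, adjusted p = 0.0022, edgeR), which was 0.18 with library totals (adjusted p = 0.511) and -0.08 with totals that leave out ribosomal RNA genes (adjusted p = 0.397).

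The formyltransferase gene *ade5* (SPCC569.08c, chromosome III, 2412339 to 2413970, plus strand) had 40.2, 38.9 and 34.8 CPM in the libraries labelled thiamine, against 52.3, 56.0 and 63.4 CPM in the control libraries. All 3 lay below the control libraries, and the log2 fold change was -0.59 (SE 0.098, adjusted p = 0.000643, edgeR), or -0.01 with library totals (adjusted p = 0.968). Its gene shares 66 bp with SPCC569.09, which rose by 4.53 on the log2 scale (adjusted p = 1.41e-07, edgeR), and the part of that overlap in the counts of *ade5* was not tested.

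The gene of the next step, *ade3* (SPAC6F12.10c, chromosome I, 1329091 to 1333320, minus strand, 1 exon), encodes the amidotransferase that makes formylglycinamidine ribonucleotide (FGAM synthase). It had 141, 143 and 136 CPM in the libraries labelled thiamine, against 189, 201 and 223 CPM in the control libraries. No values overlapped between the groups, and *ade3* had a log2 fold change of -0.54 (SE 0.089, adjusted p = 0.000602, edgeR), which was 0.04 with library totals (adjusted p = 0.887) and -0.94 once the length and GC trends of the libraries had been removed.

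The carboxylase gene *ade6* (SPCC1322.13, chromosome III, 1316281 to 1318035, plus strand, 1 exon) follows in the pathway and changed in the opposite direction. It had 6777, 6810 and 7580 counts in the libraries labelled thiamine, against 3080, 3014 and 2912 counts in the control libraries. In CPM these were 139, 142 and 140.5 for the libraries labelled thiamine and 80.2, 78.8 and 84.2 for the control libraries. The spread within each group was small beside the gap between them, and *ade6* rose by 0.79 on the log2 scale, a fold of 1.73 (SE 0.070, adjusted p = 1.7e-05, edgeR). No other annotated gene overlaps *ade6*, and its log2 fold change stayed between 0.50 and 1.38 and past the test's threshold in all 15 alternative settings.

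The next gene, *ade7* (SPBC409.10, chromosome II, 1156819 to 1158424, plus strand), encodes the synthetase that adds aspartate (SAICAR synthetase). It was counted at a far lower level, with 7.31, 8.95 and 6.62 CPM in the libraries labelled thiamine, against 12.7, 11.3 and 11.2 CPM in the control libraries. It fell by 0.62 on the log2 scale (SE 0.134, adjusted p = 0.00291, edgeR), with no overlap between the groups, but lost the call with library totals (-0.05, adjusted p = 0.871) and without ribosomal RNA genes in the totals (-0.30, adjusted p = 0.0797). The annotated antisense RNA of *ade7* covers 92.7% of the gene.

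Adenylosuccinate lyase, which acts both before IMP and in the AMP branch, is encoded by *ade8* (SPBC14F5.09c, chromosome II, 4172822 to 4175500, minus strand). Only 7, 6 and 4 counts fell on it in the libraries labelled thiamine, against 7, 5 and 3 in the control libraries. This was below the limit for testing, and a difference was not detectable with so few counts. The gene *med7* overlaps *ade8* over its entire length. Across the count table, protein-coding genes overlapped over more than 95% of their length (461 genes) had a median of 7.88 counts per kb, against 1217 for the 1891 genes with no overlap, and the part of the overlap in the low levels of *ade7* and *ade8* was not tested.

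The last enzyme on the way to IMP adds the second formyl group and closes the second ring, and its gene *ade10* (SPCPB16A4.03c, chromosome III, 947597 to 949646, minus strand, 1 exon) had the highest counts of the family. It had 597, 593 and 569 CPM in the libraries labelled thiamine, against 1062, 1079.6 and 1123 CPM in the control libraries. The groups lay far apart, and *ade10* fell by 0.89 on the log2 scale, to a fold of 0.539 (SE 0.103, adjusted p = 7.49e-05, edgeR). No other gene overlaps it. With library totals the value was -0.31 (adjusted p = 0.217).

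Adenylosuccinate synthetase, the entry into the AMP branch, is encoded by *ade2* (SPAC144.03, chromosome I, 4654631 to 4656456, plus strand, 3 exons), which had the largest fall of the family with TMM normalization. It had 177, 177 and 123.5 CPM in the libraries labelled thiamine, against 318, 332 and 349 CPM in the control libraries. Replicate 3 labelled thiamine was the lowest, and all 3 were below the control libraries. The log2 fold change was -1.07 (SE 0.145, adjusted p = 0.000199, edgeR) and stayed between -1.36 and -0.50 in the alternative settings, each with a call (largest adjusted p = 0.0471). It fell by less than *ade4* without replicate 3 labelled thiamine (-0.93, against -0.96 for *ade4*) and with the length and GC trends removed (-0.80, against -1.08 for *ade4* and -0.94 for *ade3*). An annotated antisense RNA covers 33.0% of *ade2* and had 39, 47 and 95 counts in the libraries labelled thiamine, against 78, 58 and 50 counts in the control libraries. Its own log2 fold change of -0.49 did not pass the test (SE 0.323, adjusted p = 0.204, edgeR). Within the group labelled thiamine, replicate 3 had the most antisense counts, before scaling, and the lowest *ade2* level. A relation between them was not tested.

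Formyl and other one-carbon groups for the pathway are prepared on tetrahydrofolate by the C1-tetrahydrofolate synthase of *ade9* (SPBC2G2.08, chromosome II, 3448906 to 3452766, plus strand, 2 exons). It had 72.0, 68.3 and 69.7 CPM in the libraries labelled thiamine, against 45.1, 43.0 and 43.5 CPM in the control libraries. Both groups were tight and did not overlap, and *ade9* rose by 0.67 on the log2 scale, a fold of 1.60 (SE 0.070, adjusted p = 4.31e-05, edgeR). Its gene shares 444 bp with *crs1*, whose log2 fold change of -0.67 did not pass the test (SE 0.313, adjusted p = 0.0835, edgeR). The call of *ade9* was kept in all 15 alternative settings, but the value was 0.31 once the length and GC trends of the libraries had been removed (adjusted p = 0.00448).

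**Figure D2:**
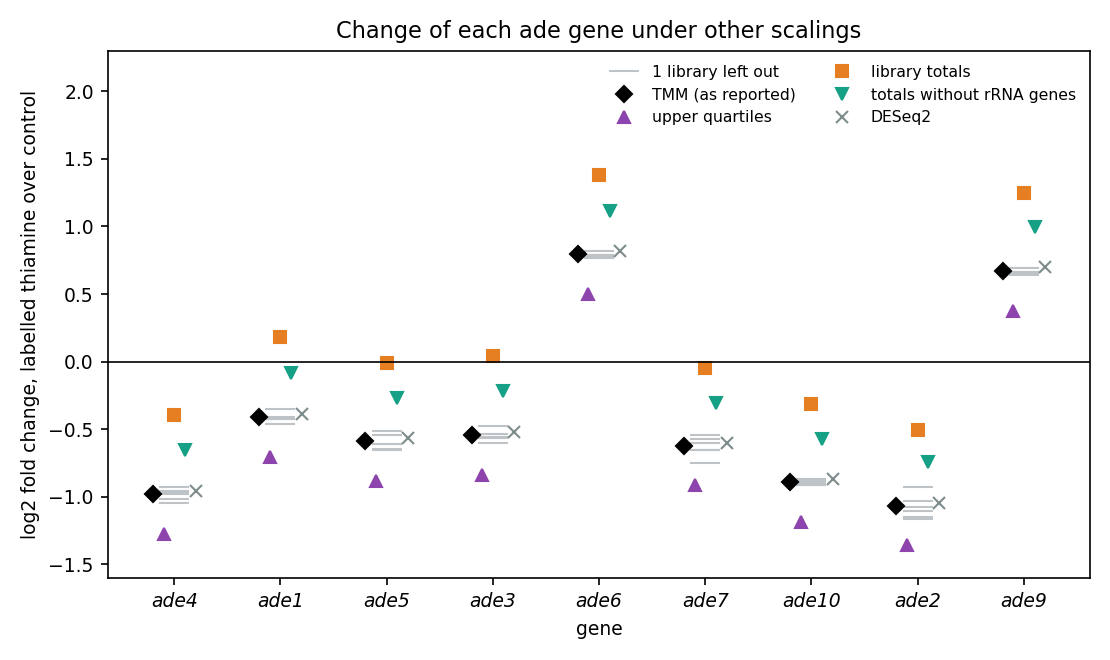
Log2 fold change, labelled thiamine over control, of the 9 tested *ade* genes under TMM normalization, DESeq2, upper quartiles, library totals, totals without ribosomal RNA genes, and with 1 library left out in turn. The points of a gene shift together with the scaling, so that *ade6* and *ade9* lie above 0 under every scaling shown while *ade1* and *ade3* cross to 0.18 and 0.04 with library totals.

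The choice of scaling moved all genes together. Over all tested genes the median was -0.01 with TMM, -0.31 with upper quartiles, 0.57 with library totals and 0.31 with totals without ribosomal RNA genes. A scaling moves every gene by nearly the same amount, so the distances between genes are fixed by its construction, while the number of *ade* genes below 0 moved with it. Over all settings, the removal of length and GC trends included, the value relative to the median ran from -0.93 to -0.47 for *ade3* and from 0.32 to 0.71 for *ade9*.

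Ratios of 2 genes within a library need no scaling between libraries and were therefore compared as well, per kb of transcript. They restate the distances between the fold changes above, for genes picked by those changes, and are no separate evidence. Length and GC trends of the libraries stay in them. With these trends removed the log2 fold changes were 0.31 for *ade9*, 0.98 for *ade6*, -0.78 for *ade10* and -1.08 for *ade4*. The *ade6* level was 0.279 to 0.296 of the *ade10* level in the libraries labelled thiamine, against 0.0874 to 0.0904 in the control libraries, a ratio 3.22 times as high. Relative to *ade4*, the level of *ade6* was 1.43 ± 0.066 in the libraries labelled thiamine and 0.421 ± 0.030 in the control libraries (SD, n = 3 each), so that the gene of the carboxylase had more counts per kb than the gene of the committed step with thiamine and fewer without. The *ade9* level was 0.0686 ± 0.0022 of the *ade10* level in the libraries labelled thiamine and 0.0232 ± 0.0011 in the control libraries (SD, n = 3 each).

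The order of the genes by level per kb of transcript differed accordingly. In the libraries labelled thiamine *ade10* came first with 281 ± 7.35 CPM per kb, followed by *ade2* with 116 ± 22.4, *ade6* with 80.5 ± 0.73, *ade4* with 56.3 ± 2.34, *ade1* with 47.6 ± 0.34 and *ade3* with 32.5 ± 0.86 (SD, n = 3). In the control libraries *ade10* had 521 ± 14.9 CPM per kb, *ade2* had 243 ± 11.1, *ade4* had 111 ± 9.15, *ade1* had 63.2 ± 4.87, *ade3* had 47.3 ± 3.97 and *ade6* had 46.5 ± 1.62 (SD, n = 3). Thus *ade6* was the third gene of the family with thiamine and the sixth without, where its values overlapped those of *ade3*. No other neighbours in either order overlapped. At the low end *ade5* had 23.1 ± 1.71 CPM per kb and *ade9* 19.2 ± 0.52 with thiamine, against 34.8 ± 3.43 for *ade5* and 12.07 ± 0.31 for *ade9* in the control libraries (SD, n = 3).

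**Figure D3:**
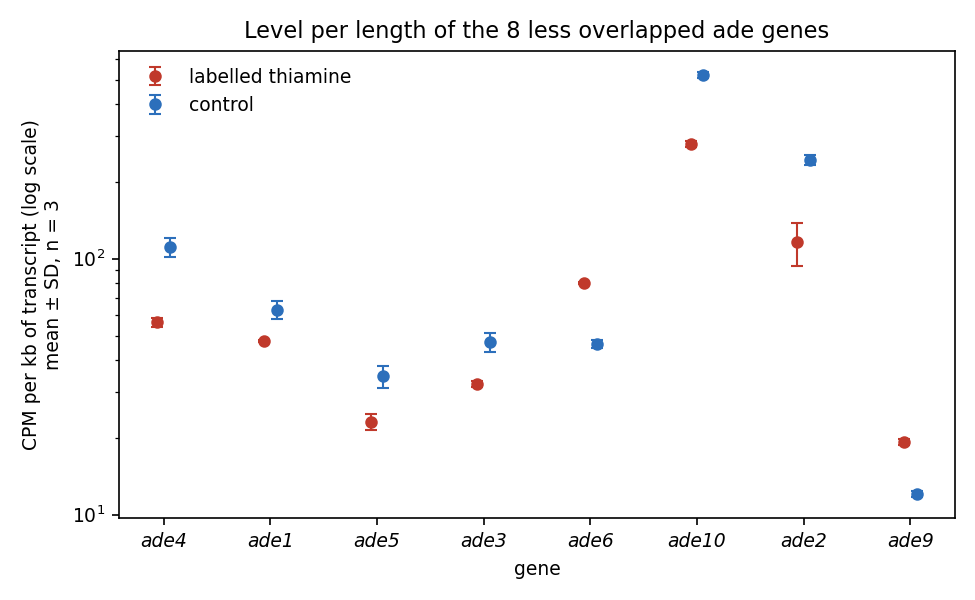
Level per length of the *ade* genes other than *ade7* and *ade8*, in CPM per kb of transcript on a log axis, as the mean and SD of 3 libraries labelled thiamine (red, left) and 3 control libraries (blue). *ade6* lies above *ade4* with thiamine (80.5 against 56.3) and below it in the control libraries (46.5 against 111), and *ade10* is highest in both groups.

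To place the *ade* genes among their neighbours in metabolism, lists of genes for purine interconversion, salvage, PRPP synthesis, one-carbon supply and the histidine branch were counted in the same fit. Of the 23 tested genes on these 5 lists, 3 rose and 12 fell with TMM normalization (13.0% and 52.2%, against 34.5% and 35.3% of all tested genes). Scaled by library totals, 6 rose and 7 fell, where 2724 of all 5434 tested genes rose and 588 fell. Counted with them were 10 further genes of these functions and of uptake, added after the files were seen, which gave 3 rising and 18 falling of 33. These are 9.09% and 54.5%, against 34.5% and 35.3% of all tested genes with TMM normalization.

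Among the 6 interconversion genes, 2 rose (33.3%, against 34.5% of all tested genes) and the other 4 did not pass the test. The IMP dehydrogenase gene *gua1*, at the entry of the GMP branch, had 925, 920.0 and 1335 CPM in the libraries labelled thiamine, against 721, 726 and 603 CPM in the control libraries. Replicate 3 labelled thiamine was highest and the groups did not overlap, with a rise of 0.63 on the log2 scale (SE 0.171, adjusted p = 0.00929, edgeR), which was 0.33 with upper quartiles (adjusted p = 0.0996) and 0.42 without replicate 3 labelled thiamine (adjusted p = 0.00269). The GMP synthase gene *gua2* had a log2 fold change of 0.16 that did not pass the test (SE 0.090, adjusted p = 0.149, edgeR), was -0.14 with upper quartiles, and passed it with library totals (0.75) and with totals without ribosomal RNA genes (0.48). Together with the fall of *ade2*, the first genes of the 2 branches from IMP thus lay on opposite sides, *gua1* at 0.63 and *ade2* at -1.07. The gene *ada1*, described in the deposited table as adenosine deaminase, rose by 0.70 (SE 0.123, adjusted p = 0.000933, edgeR).

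Of the 4 salvage genes on the list, 3 fell (75.0%, against 35.3% of all tested genes). The adenine phosphoribosyltransferase gene *apt1*, whose product turns adenine from the medium directly into AMP, had 37.2, 36.5 and 25.1 CPM in the libraries labelled thiamine, against 79.7, 107 and 88.5 CPM in the control libraries. All 3 values were lower than any control value, and *apt1* fell by 1.48 on the log2 scale (SE 0.166, adjusted p = 6.78e-05, edgeR). The adenosine kinase gene *ado1* fell by 1.24 (adjusted p = 0.00083), and the adenine deaminase gene *dea2* fell by 0.99 (adjusted p = 0.000159), but lost its call with library totals (-0.42, adjusted p = 0.0823). The hypoxanthine phosphoribosyltransferase gene *hpt1* had a value of -0.18 (adjusted p = 0.0699, edgeR) that turned positive with both totals and with the length and GC trends removed, and that passed the test with upper quartiles (-0.48) and without replicate 3 labelled thiamine (-0.19, adjusted p = 0.0218). For uptake, SPCC285.05 fell by 1.05 (adjusted p = 7.59e-05), SPAC29B12.14c fell by 0.43 (adjusted p = 0.0128, but 0.13 with library totals), and the other 2 genes of the 4 did not pass the test. The share of uptake genes that fell was thus 50.0%, against 35.3% of all tested genes.

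The one-carbon genes, which share tetrahydrofolate with *ade9*, held the largest falls of the lists. Of 8 tested, 6 fell (75.0%, against 35.3% of all tested genes) and 1 rose (12.5%, against 34.5%). The serine hydroxymethyltransferase gene *shm1*, a main entry of one-carbon units, had 1400.0, 1443 and 814 CPM in the libraries labelled thiamine, against 8628, 8083 and 9023 CPM in the control libraries. The groups were far apart, and *shm1* fell by 2.81 on the log2 scale (SE 0.248, adjusted p = 1.61e-05, edgeR). The glycine cleavage genes *gcv2*, *gcv3* and *gcv1* fell, with log2 fold changes of -1.88, -1.64 and -1.61, as did *met9* at -1.10 and *shm2* at -0.98 (largest adjusted p = 0.000405, edgeR), of which *shm2* lost its call with library totals (-0.42, adjusted p = 0.0881). The riser, *met11*, had a log2 fold change of 0.24 (SE 0.078, adjusted p = 0.0236, edgeR) that was -0.06 with upper quartiles and lost its call without replicate 1 labelled thiamine (adjusted p = 0.0717), without control replicate 1 (0.0682) and without control replicate 2 (0.0893).

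Beside the falls on this list, *ade9* rose. The gene *thf1*, added later, is described in the deposited table as a C1-tetrahydrofolate synthase too, the same trifunctional activity as that of *ade9*. It had 327, 320.5 and 216 CPM in the libraries labelled thiamine, against 971, 914 and 984 CPM in the control libraries. The groups lay far apart, and *thf1* fell by 1.73 on the log2 scale (SE 0.167, adjusted p = 2.76e-05, edgeR), where *ade9* rose by 0.67. Per kb, the level of *ade9* was 0.239 ± 0.058 of that of *thf1* in the libraries labelled thiamine and 0.0436 ± 0.0014 in the control libraries (SD, n = 3 each), a ratio 5.48 times as high. Of the other 2 genes added later, *fau1* had 2 to 11 counts a library and was not tested, and *mtd1*, described there as a methylenetetrahydrofolate reductase, fell by 0.24 (adjusted p = 0.0115, edgeR), and was at 0.34 with library totals and 0.08 without ribosomal RNA genes in them.

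The histidine pathway starts from PRPP and ATP and releases the intermediate that Ade10 uses. Its genes *his1*, *his6* and *his4* fell, with log2 fold changes of -0.86 (adjusted p = 0.000153), -1.04 (adjusted p = 0.000135) and -0.88 (adjusted p = 0.00643), and the other gene of the 4 did not pass the test. The share that fell was 75.0%, against 35.3% of all tested genes. With library totals the calls were lost for *his1* (-0.28, adjusted p = 0.286), *his6* (-0.48, adjusted p = 0.0719) and *his4* (-0.34, adjusted p = 0.221), and other annotated genes overlap 81.0% of *his6* and 90.8% of *his4*, as with *ade7*. The PRPP synthetase genes, 1 from the list and 2 added, did not pass the test either (adjusted p = 0.0571 to 0.969). One of the added genes, SPCC1620.06c, had 22 to 74 counts a library and is overlapped entirely. Of the 4 pyrimidine synthesis genes listed, *ura1* and *ura3* rose by 0.80 and 0.76 and *ura2* and *ura5* fell, at -0.58 and -0.77. Their median was 0.09, against -0.59 for the *ade* genes. That list leaves out *ura4*, the gene of orotidine 5'-phosphate decarboxylase and the marker of the strain, which was counted as a check. It fell by 1.75 (adjusted p = 1.62e-06, edgeR). In this strain ura4+ stands beside the thiamine-repressible promoter at *nup211*, and the *ura4* locus carries ura4-D18. The value of *ura4* may therefore not be that of a pyrimidine gene at its own locus, which was not tested. With *ura4* added, the middle value would be that of *ura2*, -0.58, close to the *ade* genes. The contrast between the medians therefore depends on leaving *ura4* out. With the length and GC trends removed *ura1* was at 0.17 (adjusted p = 0.0559), and with library totals *ura2* was at -0.02 (adjusted p = 0.932) and *ura5* at -0.22 (adjusted p = 0.364). No test of the difference between the families was made.

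**Figure D4:**
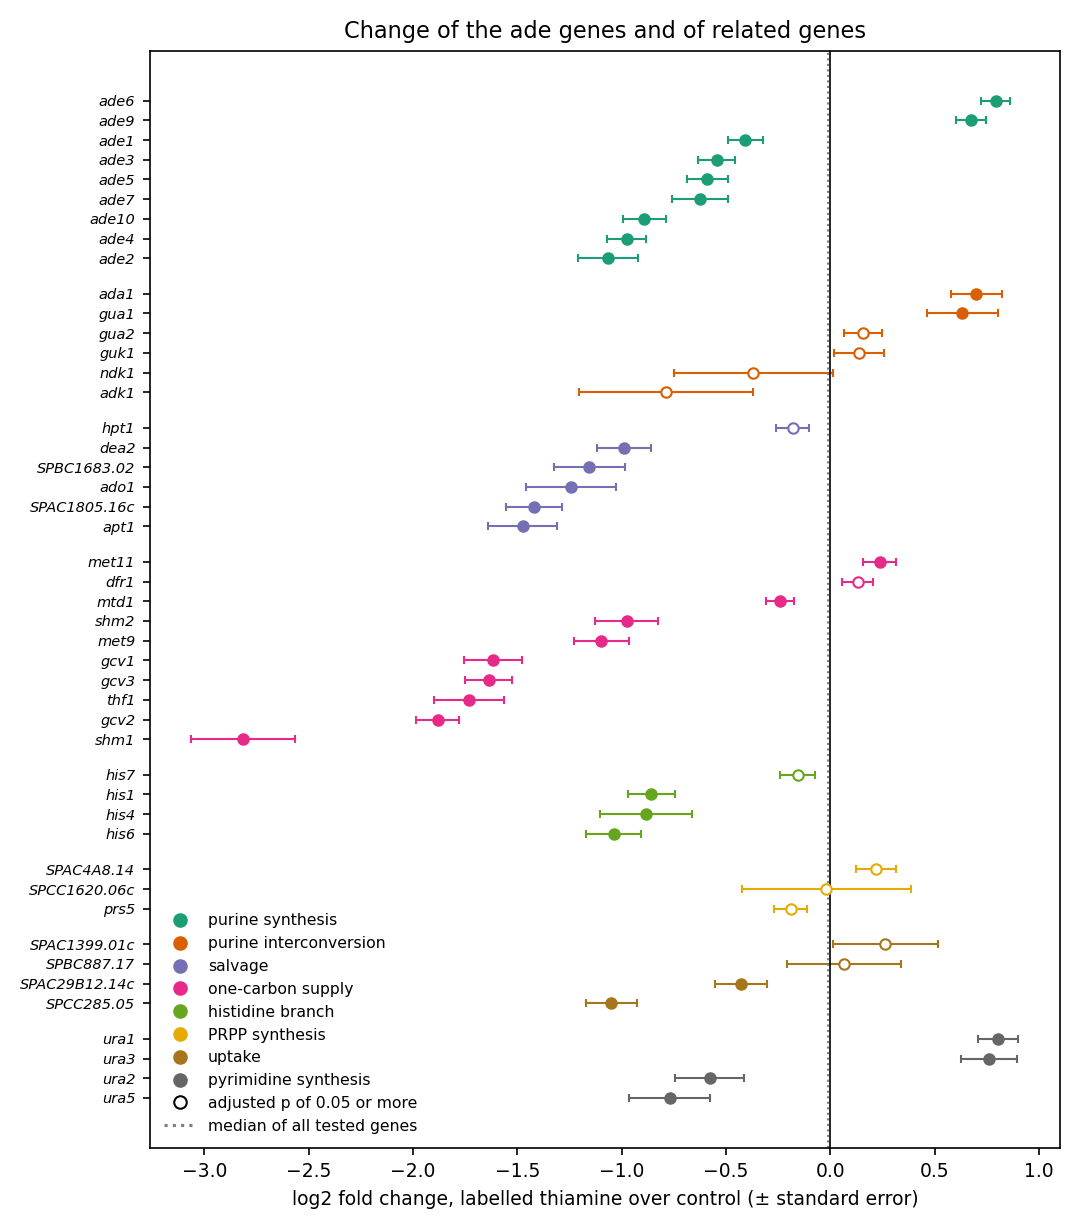
Log2 fold change, labelled thiamine over control, with its standard error, of the tested *ade* genes and of 6 related groups and the pyrimidine genes (filled, adjusted p under 0.05, open, not called, edgeR with TMM). *ade6* and *ade9* lie right of 0 beside 7 falling *ade* genes, most salvage, one-carbon and histidine genes lie left, and *shm1* lies farthest left at -2.81. With library totals *ade1*, *ade3*, *hpt1*, *mtd1* and SPAC29B12.14c take positive values, and with upper quartiles *gua2* and *met11* take negative ones.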

How the data were processed

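Polyadenylated RNA of 6 cultures was made into stranded libraries. Raw counts for 6291 genes, with no normalization, were deposited by the authors. The submitters' processing notes name STAR and DESeq2, and the versions, genome build and strand setting of the counting are not given in the sources used here. The authors also deposited a table of their DESeq2 comparison, of which only names, descriptions and positions were used, and not its fold changes and p-values. Positions are from RefSeq's ASM294v3, and 99.98% of 6199 genes with both positions overlapped the deposited ones.

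The main test was glmQLFTest of edgeR 4.0.16 (quasi-likelihood, R 4.3.3), with TMM normalization, the default filter on low counts (5434 genes kept) and Benjamini-Hochberg adjustment over all tested genes. The threshold for a call was an adjusted p of 0.05. The SE was taken from the log2 fold change and the F statistic. CPM are TMM-normalized counts scaled to 1e+06, and CPM per kb were divided by transcript length. DESeq2 1.42.0, 4 other scalings, no filter, a replicate block, removed length and GC trends and leaving out each library were alternatives. On counts simulated at the depths of these libraries, edgeR recovered 100 of 100 genes changed by 1 on the log2 scale, with 10 false calls among 5399 genes. The simulation gave every gene the same spread and changed few genes, whereas 69.8% of genes were called in the data. It therefore cannot show how well the test or the scaling does on these data. Copies elsewhere in the genome (at least 95% identity over 100 bp, blastn 2.17.0) were found for 0 of the 10 *ade* genes.

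All 10 *ade* genes are named, with *nup211*, *ura4* and *nmt1* as checks and members of the related lists. The *ura4* marker fell by 1.75 on the log2 scale (adjusted p = 1.62e-06). These genes and lists were chosen with earlier results of these data known. Of 44 listed names 4 were not matched, and *prs1* was left out because its match is described as a proline-tRNA ligase. P-values set the difference between the groups against the spread between the 3 biological replicates of a group, moderated over all tested genes. No pair of replicates was the same library.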

Additional observations from a re-analysis of the deposited data

How the results depend on the processing

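Over 15 alternative settings, the 9 tested *ade* genes kept their direction and call in 127 of 135 values, lost the call in 6 and changed direction in 2, *ade1* (0.18) and *ade3* (0.043) with library totals. With library totals 1 *ade* gene was called lower in place of 7, and the number called higher was 2 in every setting. Over all genes, 588 were called lower with library totals and 1193 with totals without ribosomal RNA genes, against 1917 with TMM. Of the called genes 82.2% and 68.0% were then higher, and 34.6% with upper quartiles, against 49.5% with TMM. On the related lists, 1 gene was called higher with upper quartiles and 6 with either kind of totals, against 3, and 7 were called lower with library totals, against 12. Values that changed direction were, with upper quartiles, *gua2* (-0.14) and *met11* (-0.062), with library totals *hpt1* (0.40), *nup211* (0.40), *mtd1* (0.34) and SPAC29B12.14c (0.13), with totals without ribosomal RNA genes *hpt1* (0.14), *nup211* (0.15) and *mtd1* (0.079), and *hpt1* with length and GC trends removed, without (0.024) and with (0.025) the replicate block. Other calls named in the text were lost, with the direction kept, for *ade4*, *ade5*, *ade7*, *ade10*, *dea2*, *shm2*, *his1*, *his6*, *his4*, *ura2* and *ura5* with library totals, for *ade1*, *ade7*, *ura2*, *ura5* and SPAC29B12.14c without ribosomal RNA genes in the totals, for *gua1* with upper quartiles, and for *met11*, *mtd1* and *ura1* with the length and GC trends removed. The cause was not tested.

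Leaving out each library in turn gave 1731 to 1951 genes called higher and 1709 to 2043 lower, and kept the call of each *ade* gene, with the largest adjusted p at 0.0167 for *ade7* (edgeR). SPAC29B12.14c lost its call without control replicate 1 (-0.32, adjusted p = 0.053). Same-numbered libraries did not deviate together (correlations -0.0049, 0.086 and -0.028), and not every library correlated best with its own number. With the replicate block 1845 genes were called higher and 1874 lower, and 2 *ade* genes higher and 7 lower. Of the *ade* genes only *ade8* had too few counts to test, and *ade7* had 356 to 486 counts a library. Overlapping genes cover most or all of both, and the part of that overlap in their counts was not tested.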
